A study of Drosophila melanogaster with 3 samples.

Results

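The 6 genes described here encode transcription factors of the AP-1 family and parts of the Jun N-terminal kinase (JNK) cascade of Drosophila melanogaster: kay (Fos), Jra (Jun), Atf3, puc, bsk (JNK) and hep (the kinase upstream of JNK). They were selected on the basis of Combgap peaks already seen in these data, so their counts and ranks are a description and no test was run on them. They are 6 of 13945 protein-coding genes, and 36 of the 7913 summits of the thresholded peak list lay in their bodies or within 5 kb of them. Each of the 6 had at least 1 such summit, and 46.7% of all protein-coding genes met the same rule. Among genes of 0.8 to 1.25 times a member's length, that share ran from 41.1% for Jra to 78.1% for kay.

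The peaks came from chromatin immunoprecipitation and sequencing (ChIP-seq) with an antibody against GFP in whole embryos of mixed sex, collected at 0 to 24 h. The flies stably expressed a transgene of cg, the gene for Combgap, with GFP at the C-terminal end. The 3 samples were biological replicates of this 1 group, so there was no contrast between conditions, and in whole embryos of all stages no peak could be assigned to a tissue or stage. A summit is the position of highest signal within a peak, and summits were ranked by peak signal, with rank 1 the highest. The thresholded list kept peaks that recurred between replicates by the irreproducible discovery rate (IDR), and ran from a signal of 372 to 26682 with a median of 910. The list called on the pooled alignments and each replicate list held 30000 peaks. Read depth is unknown, and signal scales differed between lists, so values are ranks or ratios to the median of the same list. Coordinates are those of dm6, counted from 1.

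In the fly, JNK signalling runs from upstream kinases through hep to bsk, which phosphorylates Jra. Jra pairs with kay as AP-1, and this dimer binds the palindrome TGANTCA, where N is any base. Among the genes that AP-1 switches on is puc, a phosphatase that removes the activating phosphates from bsk and so closes a negative feedback loop. The pathway is best known in the embryo for dorsal closure, in which the flanks of the epidermis are drawn together over the amnioserosa, and later for wound healing and stress responses. Atf3 is a basic leucine zipper (bZIP) protein that can pair with Jra. Combgap is a zinc-finger protein that binds GT repeats and has been tied to Polycomb response elements.

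Sequences from some of the member summits are printed here. They were picked for the features named with each and are not a fair sample of the member summits. All are plus-strand sequence of the release 6 (dm6) assembly from RefSeq, read 5′ to 3′, reaching at most 50 bases to either side of the summit. Capitals mark an AP-1 palindrome or a GT repeat that holds GTGTGT on either strand. The first sequence held the highest kay summit and ended just before the start of the transcripts kay-RA and kay-RG, at chr3R:29772795-29772891, and it is shown for the GT repeats beside that start. The next held the kay summit with both an AP-1 palindrome and a long GT repeat, at chr3R:29778831-29778931. The last kay sequence, at chr3R:29774570-29774670, is shown because it held no GTGTGT but 12 matches to GAGAG, overlapping ones counted singly.
kay rank 595: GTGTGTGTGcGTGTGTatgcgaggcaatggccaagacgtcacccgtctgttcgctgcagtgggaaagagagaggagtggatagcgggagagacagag
kay rank 4435: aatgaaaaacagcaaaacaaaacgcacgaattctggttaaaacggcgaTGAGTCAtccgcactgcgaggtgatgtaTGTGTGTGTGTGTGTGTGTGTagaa
kay rank 1429: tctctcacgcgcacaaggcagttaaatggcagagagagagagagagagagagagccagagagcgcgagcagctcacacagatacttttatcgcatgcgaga
Both puc sequences carried an AP-1 palindrome in an intron, at chr3R:8119916-8120016 for the highest puc summit and at chr3R:8114248-8114348 for the summit of rank 3096.
puc rank 766: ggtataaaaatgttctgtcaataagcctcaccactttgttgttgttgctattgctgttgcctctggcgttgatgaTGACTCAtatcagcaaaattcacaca
puc rank 3096: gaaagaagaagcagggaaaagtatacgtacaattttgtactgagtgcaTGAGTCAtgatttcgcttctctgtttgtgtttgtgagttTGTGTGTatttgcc
The Atf3 sequence, from an intron at chrX:1253255-1253355, had the longest GT repeat found within 100 bp of a member summit, and 24 of its 27 bp are shown. The hep sequence, from an intron at chrX:13087386-13087486, had the longest GT repeat found within 100 bp of a hep summit.
Atf3 rank 5430: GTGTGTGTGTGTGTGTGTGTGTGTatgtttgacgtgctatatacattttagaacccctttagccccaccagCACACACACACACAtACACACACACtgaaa
hep rank 3988: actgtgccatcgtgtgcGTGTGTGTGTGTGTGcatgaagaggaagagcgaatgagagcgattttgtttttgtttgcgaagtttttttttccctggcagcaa

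Of the kinases, hep had 4 summits and bsk had 3. The hep gene (FBgn0010303, chromosome X, 13079205 to 13090434, minus strand, 11.2 kb, 1 start site shared by 7 annotated transcripts) had all 4 summits inside its body. Its highest, at 13090049, lay in the 5′ UTR 385 bp downstream of the start, ranked 348 in the thresholded list and had 6.80 times the list's median signal. That summit ranked 327, 446 and 326 in replicates 1, 2 and 3, a mean of 366 ± 69.0 (SD, n = 3). All 3 replicates thus placed it among their 1000 highest peaks. The other hep summits were intronic, 1750 to 2998 bp downstream of the start, and ranked 3112, 3988 and 5820. The neighbouring gene lic, a p38 kinase kinase, lies close enough that these 4 summits also fell within 5 kb of its body.

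The JNK gene itself, bsk (FBgn0000229, chromosome 2L, 10247502 to 10250501, minus strand, 3.00 kb), had its highest summit at 10249914, in an intron and 172 bp upstream of the start of the transcript bsk-RF. It ranked 1652, at 2.59 times the list median, and it ranked 1603, 1759 and 1918 in the 3 replicates (mean 1760 ± 158, SD, n = 3). The replicate ranks thus lay close together, well below those of hep. A weaker summit 205 bp away ranked 4865, and the last one, of rank 6716, lay outside the bsk body in an intron of chico, the insulin receptor substrate gene, 212 bp downstream of the nearest chico start.

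**Figure D1:**
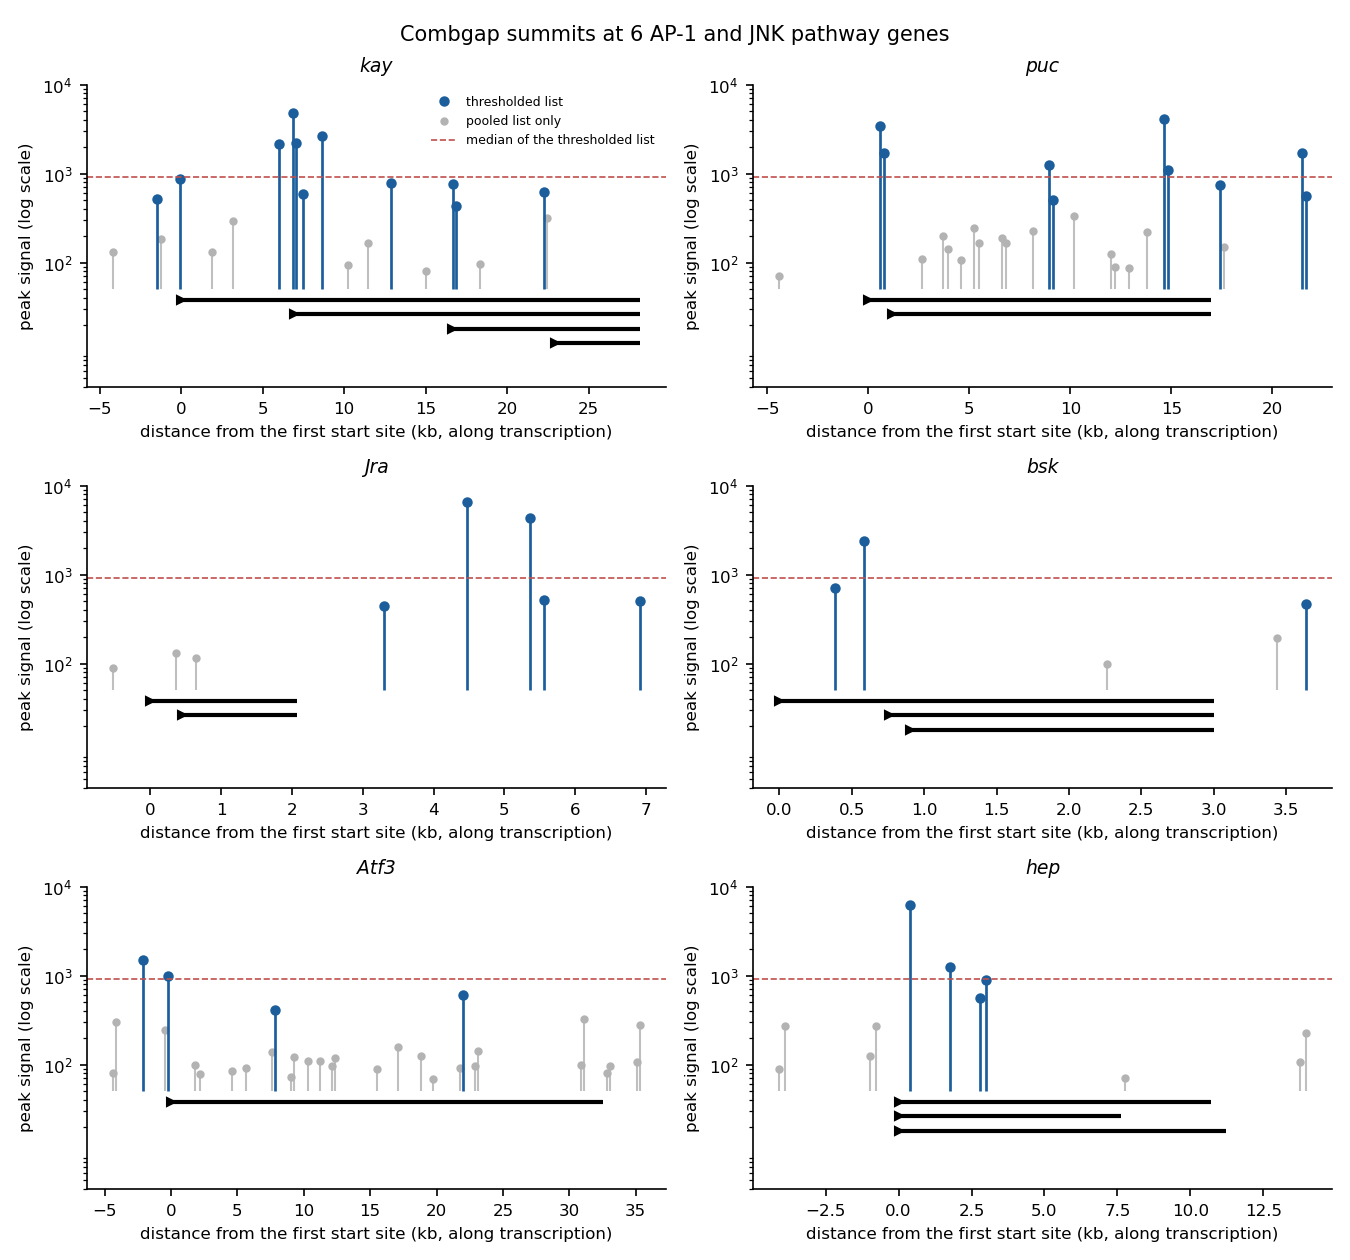
Peak signal (log scale) of thresholded summits (blue) and of summits found in the pooled list only (grey) against distance in kb from the first start site of each member, along the direction of transcription. Black bars are annotated transcripts with the arrowhead at the start, drawn below the signal range, and the dashed line is the thresholded list's median of 910. The kay and puc bodies carry several blue summits above that line, whereas the Jra body carries grey ones only.

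The AP-1 genes differed from each other in where their summits lay. The kay gene (FBgn0001297, chromosome 3R, 29765995 to 29794113, plus strand, 28.1 kb) had 11 summits, the most of the 6 members, and 9 of them were in the body. It has 4 start sites, and each had a summit within 684 bp, at distances of 49, 47, 65 and 684 bp. The highest, at 29772845, lay 47 bp upstream of the start shared by kay-RA and kay-RG, inside an intron of the longer transcript kay-RD. It ranked 595, at 5.28 times the list median, and ranked 598, 493 and 665 in the 3 replicates (mean 585 ± 86.7, SD, n = 3). It led a group of summits around that start, with summits of rank 1809 at 889 bp upstream, rank 1795 at 158 bp downstream and rank 5616 at 597 bp downstream, the last pair in the 5′ UTR. A further summit of rank 1429 lay in an exon of the noncoding gene lncRNA:CR46110, which sits within kay. By comparison the upstream start of kay-RD and the internal start of kay-RB had nearest summits of rank 4072 and 4558, and the start of kay-RF had one of rank 5343. The highest kay summit therefore belonged to an internal start and not to the first one.

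Jra had 5 summits, all outside its body. The gene (FBgn0001291, chromosome 2R, 10096480 to 10098556, plus strand, 2.08 kb) was the shortest member, and its 5 summits all fell inside the next gene downstream, 14-3-3zeta, which encodes an adaptor protein of Ras and Raf signalling. The highest, at 10100959, lay 2403 bp past the end of Jra in an intron of 14-3-3zeta, 77 bp upstream of a 14-3-3zeta start site. It ranked 305, the highest rank of any member summit, at 7.12 times the list median, and ranked 303, 300 and 310 in the 3 replicates (mean 304 ± 5.13, SD, n = 3). The summit of rank 700, at 10101838, lay 802 bp downstream of the nearest 14-3-3zeta start and ranked 728, 623 and 765 in the replicates. Nearest to Jra itself was the weakest of the 5, of rank 7011, 2856 bp downstream of the closer Jra start. The count of members with a summit therefore includes Jra only through a neighbour's body.

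Weak peaks that did not pass the IDR step were listed near the Jra start, not all at the same position. The pooled list had a summit at 10096844, 84 bp upstream of the start of Jra-RA and Jra-RC, with 0.809 times the pooled median, a rank of 17678 and a −log10 q value of 1.71. The closest peaks to that start were 184 bp, 76 bp and 42 bp away in replicates 1, 2 and 3, where they ranked 18384, 27887 and 16484. In every replicate they had less than that list's median signal, at 0.761, 0.502 and 0.893 times it.

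Atf3 had fewer summits than kay, 4 and 11, and its highest ranked lower, while the median ranks of their summits were 4578 at Atf3 and 4435 at kay. The gene (FBgn0028550, chromosome X, 1242740 to 1275284, minus strand, 32.5 kb) had 4 summits and a single start site. Its highest, at 1277371, was intergenic and 2087 bp upstream of that start, and it ranked 2659 at 1.63 times the list median. In the 3 replicates it ranked 2796, 2941 and 2720 (mean 2819 ± 112, SD, n = 3), below the 1000 highest peaks in each. A second intergenic summit, 234 bp upstream of the start, ranked 3726. The remaining pair were deep in introns, 7826 and 21979 bp downstream of the start, and ranked 7378 and 5430. The window of Atf3 held 31 pooled peaks, of which 12.9% were in the thresholded list, against 22.7% of the pooled peaks of chromosome X and 26.4% of all pooled peaks. The same share was 55.0% of 20 for kay, 62.5% of 8 for Jra, 60.0% of 5 for bsk, 36.0% of 25 for puc and 36.4% of 11 for hep.

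The feedback phosphatase gene puc (FBgn0243512, chromosome 3R, 8105332 to 8122294, plus strand, 17.0 kb) had 9 summits, 6 of them in the body. Its highest was not at a start site: it lay at 8119966 in an intron, 13478 bp downstream of the second puc start and 2759 bp upstream of the nearest start, that of CG7878. It ranked 766, at 4.53 times the list median, and ranked 762, 649 and 947 in the 3 replicates (mean 786 ± 150, SD, n = 3). The next, of rank 1046, lay in a coding exon 557 bp downstream of the start of puc-RA and ranked 1072, 1265 and 937 in the replicates. Replicates 1 and 2 thus placed the intronic summit higher, and replicate 3 gave both nearly the same rank. A summit of rank 2342 lay 388 bp upstream of the start of puc-RB. A pair of ranks 3096 and 6284 lay within the intron near the noncoding gene lncRNA:CR44331, 295 and 495 bp upstream of its start. The 3 summits outside the body were in other genes, with rank 4663 in the 5′ UTR of CG7878 and ranks 2361 and 5754 in Arl8, which encodes a small GTPase of lysosome transport.

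**Figure D2:**
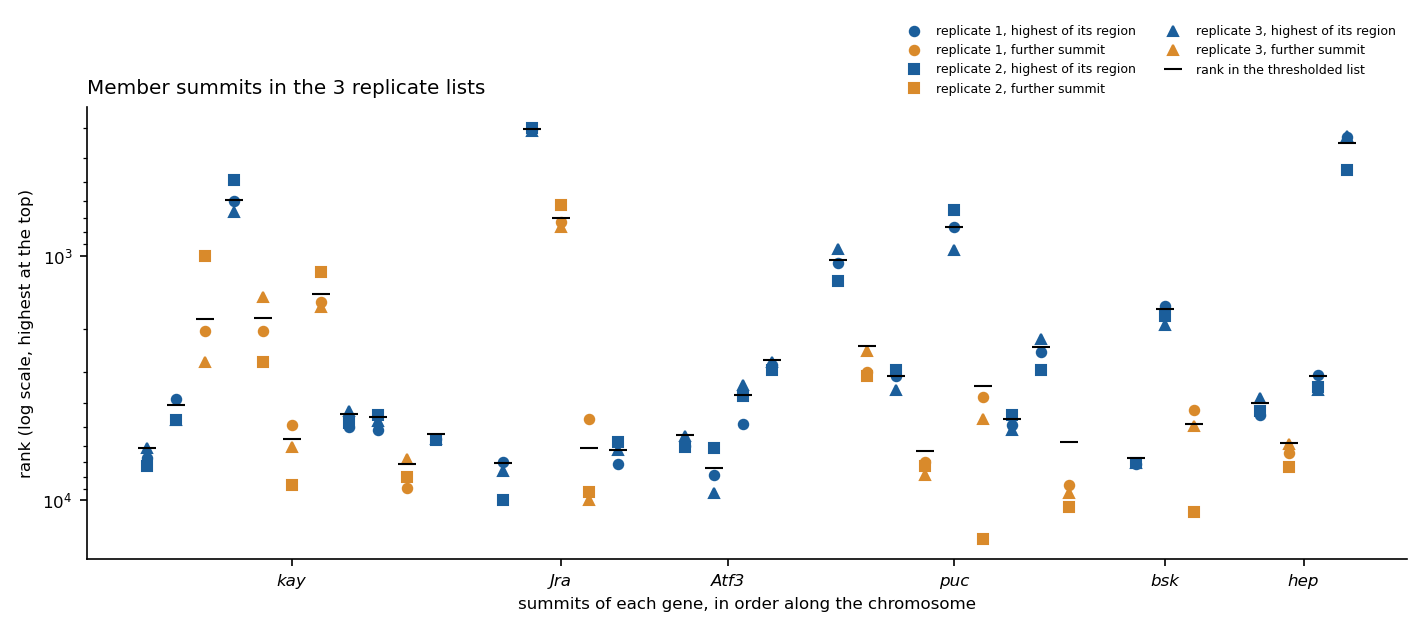
Rank (log scale, highest at the top) of the nearest summit in replicates 1 (circles), 2 (squares) and 3 (triangles) for each of the 36 member summits, in order along the chromosome within each gene. Blue marks the highest summit of each run of touching intervals, orange the further summits of that run, and black dashes give the rank in the thresholded list. The lowest-placed replicate rank is a median 1.39 times the highest-placed one for orange sets and 1.20 times for blue sets, and the summit of Jra at rank 305 has the 3 replicates almost on top of each other.

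All 36 member summits overlapped a peak of each replicate list by at least 1 bp, and 35 had a replicate summit within 100 bp in all 3. The largest distance was 121 bp, at the Jra summit of rank 6224. The thresholded list had itself been chosen from these replicates for such recurrence. Neither this overlap nor the closeness of replicate ranks is therefore independent support for the peaks. Ranks varied little between replicates for the highest summit of each run of touching intervals: over 23 such member summits, the lowest-placed replicate rank was a median 1.20 times the highest-placed one, with a range of 1.01 to 1.53, and over the 6031 such summits of the whole list the median was 1.19. The further summits of a run varied more, with a median of 1.39 and a range of 1.13 to 3.80 over 13 member summits, and a median of 1.41 over 1882 in the list. The widest spread was at the puc summit of rank 3424, 203 bp from the highest puc summit, which ranked 3770, 14321 and 4648 in the replicates. It was followed by the kay summit of rank 1809, which ranked 2037, 1000 and 2719, and the bsk summit of rank 4865, which ranked 4288, 11128 and 4949. Replicate 2 placed the puc and bsk summits lowest and the kay summit highest.

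Neighbouring summits in a run mostly lay just above the smallest gap seen in the list. Whether this spacing came from the calling of peaks was not tested. Of 13 adjacent member pairs, 9 (69.2%) were 200 to 219 bp apart, with a smallest gap of 200 bp and a median of 205 bp. Over the whole list the share was 56.2% of 1882 pairs, with a smallest gap of 199 bp and a median of 209 bp. Counted as runs of touching intervals, the 36 member summits amount to 23 regions.

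Set against all genes, 4 of the 6 members had a summit among the 1000 highest of the list, with 2 at Jra and 1 each at kay, puc and hep, and 14.4% of all protein-coding genes had one. The highest summit of Jra was matched or exceeded by that of 4.58% of protein-coding genes, Jra included, that of hep by 5.31%, that of kay by 8.94% and that of puc by 11.3%. For bsk the share was 20.8% and for Atf3 27.9%. The median rank of the 36 member summits was 4030 and that of all summits was 3957, and 17 of the 36 were among the 3956 highest. Because genes were credited with any summit within 5 kb, genes that share a neighbourhood share their ranks. The ranks given for Jra are those of summits inside 14-3-3zeta.

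**Figure D3:**
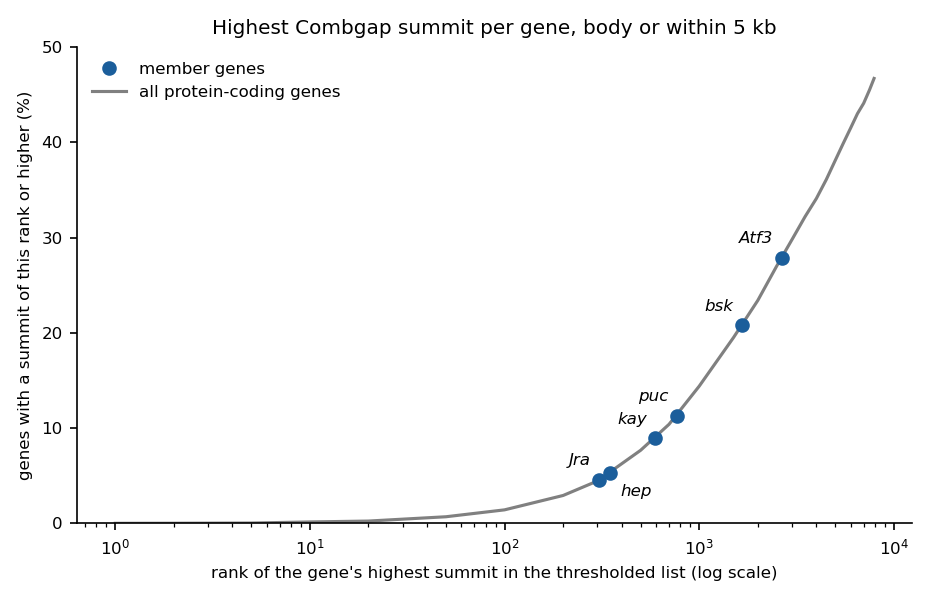
The 6 members (blue points) on the cumulative curve of all 13945 protein-coding genes (grey line). The horizontal axis is the rank of a gene's highest summit in the body or within 5 kb (log scale), and the vertical axis the percentage of genes with a summit of that rank or higher. Jra and hep sit near 5%, kay and puc near 10%, and bsk and Atf3 above 20%, on a curve that ends at 46.7%.

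The 6 members differ in length, so each was set beside protein-coding genes of 0.8 to 1.25 times its length. Of such genes, 78.1% had a summit for kay, 74.5% for puc, 74.2% for Atf3 and 71.9% for hep. For bsk the share was 48.7% and for Jra 41.1%. With 11 summits kay was matched or exceeded by 4.38% of 365 such genes, whose median was 3. With 9 summits puc was matched or exceeded by 4.73% of 529, with a median of 2, and with 5 summits Jra by 2.15% of 2605, with a median of 0. The 3 summits of bsk were reached by 14.2% of 1953 similar genes, with a median of 0, the 4 of hep by 20.9% of 684 and the 4 of Atf3 by 37.6% of 330, both with a median of 2. Per 10 kb of body and flanks, the density was 4.14 summits at Jra, 3.34 at puc, 2.89 at kay, 2.31 at bsk, 1.88 at hep and 0.940 at Atf3. All 5 Jra summits lay in the flank and inside 14-3-3zeta, so both Jra values describe that neighbour and not the Jra body.

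By the narrower rule of a summit within 1 kb of one of their own start sites, 5 of the 6 members had one (83.3%), and 22.9% of protein-coding genes did. Jra was the member without. Of the 36 summits, 23 were in the member's own body and 13 outside it, 9 of these inside another gene, and for 16 the nearest start site belonged to another gene. Of the 36, 20 (55.6%) lay within 500 bp of a start site of any gene, as did 45.0% of all summits. Introns held 22 member summits (61.1%, and 53.6% of all summits), 5′ UTRs held 7 (19.4%, and 19.9%), and 4 were intergenic (11.1%, and 19.3%). Coding exons held 2, at puc and in Arl8 (5.56%, and 1.34%), 1 lay in a noncoding exon, and none lay in a 3′ UTR.

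GTGTGT was found on either strand within 100 bp of 22 member summits (61.1%) and of 63.3% of all summits. By gene the counts were 7 of 11 at kay, 3 of 5 at Jra, 2 of 4 at Atf3, 6 of 9 at puc, 1 of 3 at bsk and 3 of 4 at hep. The longest GT repeat near a member summit had a median of 7 bp and a range of 3 to 27 bp, and over all summits the median was 7 bp. Within 100 bp, the longest repeats were not at the highest member summits. The 27 bp repeat was at the Atf3 summit of rank 5430. The kay summits of ranks 4435 and 5343 had repeats of 21 bp and 17 bp. By comparison, the highest kay summit had a repeat of 9 bp and that of Jra held no GTGTGT. At the highest puc and hep summits, 12 bp and 9 bp of repeat lay inside the window, 89 and 92 bp from the summit. Both reached the edge of the window, so these repeats may be longer. The GC content within 100 bp had a median of 46.3% at member summits and 45.8% at all summits.

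The AP-1 palindrome TGANTCA, which reads the same way on both strands apart from its middle base, was found within 100 bp of 4 of the 36 member summits (11.1%), and of 3.36% of all summits. They were a pair each at kay and puc, and no match lay within 100 bp of a Jra, Atf3, bsk or hep summit. The kay summit of rank 4435, printed above, had TGAGTCA centred 1 bp from the summit and a GT repeat of 21 bp beginning 26 bp from it. The puc summit of rank 3096 also had TGAGTCA centred 1 bp away. At the highest puc summit the site was TGACTCA, centred 28 bp away, and the kay summit of rank 7127, in the 5′ UTR of kay-RB, had its site 79 bp away. A match to these letters shows neither that AP-1 was bound nor that Combgap contacted it. Over all summits, the palindrome was not gathered at the summit: 59 matches were centred 0 to 24 bp from it, 77 at 25 to 49 bp, 61 at 50 to 74 bp and 75 at 75 to 100 bp. A palindrome centred within 10 bp was present at 27 summits of the list, or 0.341%, and the kay and puc summits are 2 of them. These distances were examined after the sites at kay and puc had been seen. All 4 member sites had C or G in the middle, as did sites at 129 summits of the list, with A or T at 140.

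**Figure D4:**
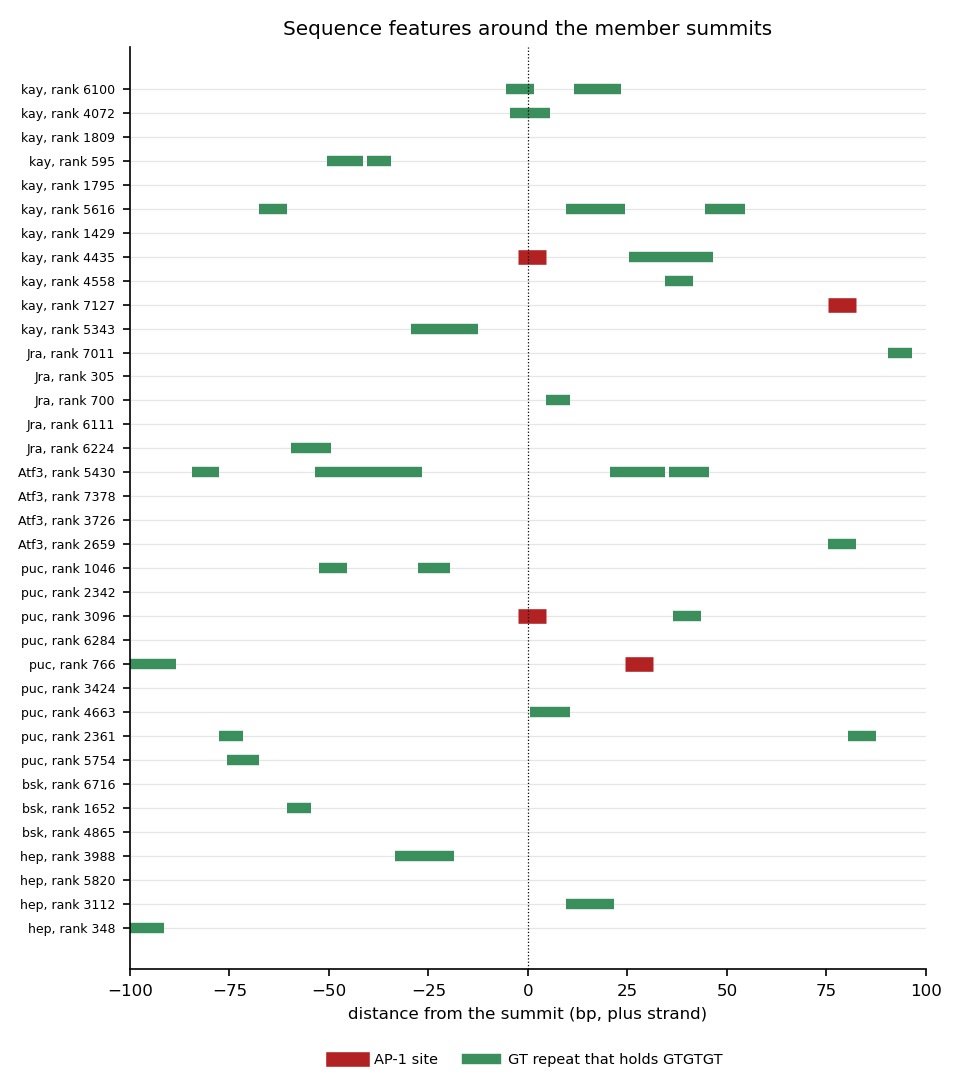
Positions of AP-1 palindromes (red) and of GT repeats that hold GTGTGT on either strand (green) within 100 bp of the 36 member summits, 1 line per summit with its rank. The horizontal axis is the distance from the summit in bp on the plus strand. A red mark sits on the dotted line at the summit for kay rank 4435 and puc rank 3096, while green marks lie at all distances.

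The shares of the other letters searched were also set beside those of the whole list. The CRE-like palindrome TGACGTCA, bound by other bZIP dimers, was at none of the member summits and at 0.556% of all summits. GAGAG, the core of sites for GAGA factor, was within 100 bp of 19 member summits (52.8%) and of 41.8% of all summits. The kay summit of rank 1429 had 16 matches within 100 bp, overlapping ones counted singly. GCCAT, the core of the Pleiohomeotic site, was within 100 bp of 10 member summits (27.8%) and of 29.9% of all summits.

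The members just inside and just outside the list's limits were as follows. Thresholded peaks carried the same signal in the pooled list, so both kinds are on 1 scale. The lowest signals that passed were 410 at Atf3, 429 at kay, 438 at Jra, 462 at bsk, 503 at puc and 554 at hep. The highest pooled peaks that did not pass were 337 at puc, 328 at Atf3, 315 at kay, 274 at hep, 192 at bsk and 131 at Jra, all below the list's floor of 372. The farthest summits within the 5 kb limit were 4836 bp from the Jra body and 4690 bp from the puc body. Just beyond it, a summit of rank 7547 lay 5423 bp from bsk and one of rank 2134 lay 6152 bp from Atf3. The next summit beyond the kay limit, 16517 bp from its body, ranked 422, above every summit counted for kay.

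Other genes of the pathway were counted by the same rule in lists from textbook knowledge, chosen with earlier results of these data known. Of 22 genes for kinases, GTPases, scaffolds and regulators of the JNK cascade, 18 (81.8%) had a summit in the body or within 5 kb and 15 (68.2%) had one within 1 kb of a start. Among the highest were those at msn, a Ste20-type kinase at the head of the cascade, with rank 39 and 11 bp from a start, and at Cka, a scaffold of STRIPAK complexes, with rank 237. Tak1, Mkk4 and Aplip1 were among the 4 without. Rank 39 was thus higher than any rank among the 6 members, and msn lies upstream of hep in the cascade.

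Of the 5 genes for the TNF ligand, its receptors and TRAF adaptors, 4 (80.0%) had a summit and 2 (40.0%) had one near a start. The adaptor gene Traf4 had rank 180, and the receptor genes grnd and wgn had ranks 2264 and 2693, whereas the ligand gene egr had none. Of 15 further bZIP genes, 12 (80.0%) had a summit and 10 (66.7%) had one near a start, with CrebB at rank 100, cnc, the Nrf2 homologue, at 306 and REPTOR-BP, a cofactor of the TORC1-regulated factor REPTOR, at 417. Atf-2, Atf6 and gt had none.

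Of 17 genes described as responding to JNK or AP-1, 14 (82.4%) had a summit and 10 (58.8%) had one near a start. The integrin gene mys had the highest at rank 60, but that summit lay inside the neighbouring gene fs(1)h. It was followed by dpp, a BMP ligand expressed in the leading edge during dorsal closure, at rank 407 and by chic, which encodes profilin, at rank 666. No summit was found for scaf, Ilp8 or Pvf1. Of 9 genes of the ERK and p38 cascades, 5 (55.6%) had a summit and 4 (44.4%) had one near a start. Among them were Raf at rank 405 with 25 summits, Mkp3, an ERK phosphatase, at rank 458, and lic, whose rank of 348 was the summit in the 5′ UTR of hep. The ERK gene rl, the scaffold gene ksr and p38a were among those without. The shares over all protein-coding genes, 46.7% and 22.9%, include genes of any length, and the lists were not matched to them for length or expression.

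**Figure D5:**
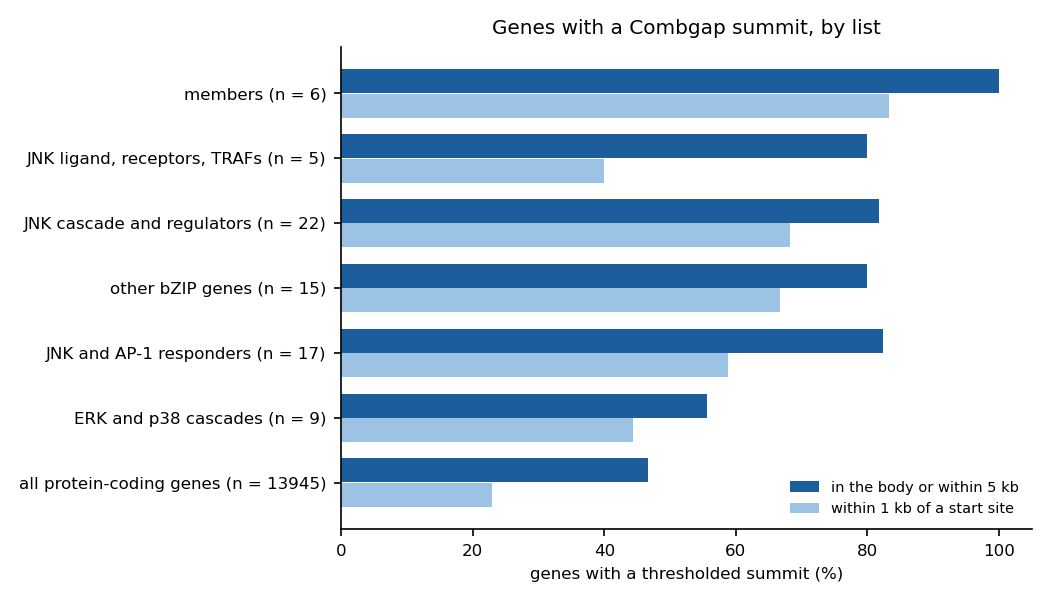
Percentage of genes with a thresholded summit, in the body or within 5 kb (dark bars) and within 1 kb of a start site (light bars), for the 6 members, the other lists and all protein-coding genes. The dark bars of the JNK and bZIP lists lie between 80.0% and 82.4%, that of the ERK and p38 list at 55.6% and that of all protein-coding genes at 46.7%.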

How the data were processed

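The 3 replicates of 1 group were compared through 5 deposited peak lists on dm6. The authors made them from replicate alignments (singly or pooled) with 1 control alignment common to all, and took the thresholded list from the others, per the text listings they deposited. The sources used here do not give the aligner, caller, IDR threshold or control. Fragments after sonication were 200 to 800 bp, per the labels. Peak signal was deposited by the authors, as were the −log10 q values and summit offsets in bp. Every thresholded peak also stood in the pooled list with the same signal.

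The 6 members, the gene lists and the AP-1 palindrome were chosen with earlier results of these data known. Genes and 23581 distinct start sites came from Ensembl release 115 and sequence from the release 6 assembly. The deposited peaks were read, ranked and counted with Python 3.11.15, numpy 2.4.6 and pandas 2.3.3. Replicate ranks are those of the replicate peak with the nearest summit, at most 121 bp away for member summits. For the highest summit of each member, the highest overlapping peak (at least 1 bp) gave the same mean rank. Named genes were all members and, in each list, up to 3 with the highest summits and up to 3 without a summit in list order; 1 gene that this rule names is not reported here. Assignment of summits to genes, motif search, GT repeat length and merging of regions were tested on simulated data. Of these checks, 6 of 6 gave the known answer, and replicate matching was not among them. Alternatives were other distances, windows, lists, merged regions and each replicate left out. Depth is unknown, and replicate agreement covers only the spread between these samples.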

Additional observations from a re-analysis of the deposited data

How the results depend on the processing

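Of 85 alternative values, 73 stayed close to those reported and 12 moved. Counts and shares were called close within 1.5 times the reported value, and mean ranks within 1 SD. A mean over 3 replicates cannot move by 1 SD when 1 is left out, so those alternatives could only be close. The 36 member summits became 23 with the gene body only, 17 among the 3956 highest of the list, 23 with 1 summit per merged region and 100 in the pooled list. With the body only, bZIP genes with a summit fell to 7, ERK and p38 genes to 3 and all protein-coding genes to 17.9%; within 1 kb of the body the last was 28.1%, and within 10 kb ERK and p38 genes numbered 8. Members with a summit were 5 with the body only or within 1 kb, since Jra dropped out. Within 250 bp of a start there were 11 member summits and 31.3% of all. With 50 bp on either side, GTGTGT was at 14 member summits and 47.0% of all. With 200 bp on either side, TGANTCA was at 7 member summits and 7.17% of all. All 36 summits overlapped a peak in every replicate list, so leaving out a replicate could not change that count. With each replicate left out, mean ranks of the highest summits ranged over 546 to 632 at kay and 302 to 306 at Jra. Those ranges were 2758 to 2868 at Atf3, 706 to 854 at puc, 1681 to 1838 at bsk and 326 to 386 at hep. No paired analysis was possible because there was 1 group. Depth is unknown, so a missing peak need not mean no binding.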
